A study of Mus musculus with 54 samples.

Results

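The gene described here is Nnt, which encodes nicotinamide nucleotide transhydrogenase, followed in 3 brain tissues of 6 inbred mouse strains. It is 1 of 18193 genes that the platform annotation names, and all probe sets assigned to Nnt alone were taken, 3 of the 45101 on the array. The data are Affymetrix mouse 3' expression arrays of hippocampus, striatum and brainstem from male mice of the strains labelled C57BL6/J, C57BL10/J, C57L/J, C57BLKS/J, BalbC/J and C3H HeJ. Each strain and tissue had 3 arrays, 1 from mice tested for prepulse inhibition of the startle response and 2 from untested mice, giving 18 arrays per tissue and 54 in all. Each array carried RNA pooled from 3 mice killed on postnatal day 60. The sample records give postnatal day 40 for housing and day 50 for the start of testing. No strain carried an engineered allele according to the labels, and the untested pools served as controls for the behavioural test only. The deposited values are log2 expression levels, so that a difference of 1 unit is a doubling.

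Nnt sits in the inner mitochondrial membrane, where it uses the proton gradient to pass hydride from NADH to NADP+ and so makes NADPH in the matrix. That NADPH keeps mitochondrial glutathione and thioredoxin reduced, which in turn supply the enzymes that remove hydrogen peroxide. The C57BL/6J strain is known for a natural deletion of several consecutive exons of Nnt and for lacking the working protein, whereas C57BL10/J, a close relative, is not known to carry it. The question asked of these arrays was how far the transcript signal of Nnt differs between C57BL6/J and the other strains, and whether tissue, behavioural testing, neighbouring genes or other NADPH genes differ with it. Arrays measure transcript and say nothing of the protein.

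Of the 54 arrays, 53 resembled most closely an array from the same tissue of the same strain. For C57L/J the tested striatum array did not, and its mean correlation with its group was 0.994. Its level of Nnt on the brightest probe set, 11.52, was the highest in striatum. The summed levels of hippocampal, striatal and brainstem marker genes were each highest in the tissue of that name. Another library, the second untested C3H HeJ brainstem array, correlated with its own group at 0.989, and the summed log2 signal of 8 cerebellar markers was 17.36 on it against at most 14.38 on the other brainstem arrays. Its summed hippocampal markers were 14.27 against at most 12.00, and its brainstem markers, at 12.41, were the lowest of that tissue. Summed choroid plexus markers ranged from 11.30 to 16.28 over the hippocampus arrays of the 5 other strains and from 12.89 to 15.54 in C57BL6/J. The brainstem calls on Nnt that change without the C3H HeJ array are given with and without it. Genes of NADPH, thiol and NAD metabolism whose brainstem call changes without it are named. Because the tissues are bulk samples, fewer cells of a type and less RNA per cell cannot be told apart. No array carries a single animal, so the spread behind each p-value is that between pools of mice.

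Of the 3 Nnt probe sets, 2 gave a clear signal and 1 did not. The brightest, 1456573_x_at (probe set A), averaged 10.93 over the 54 arrays and lay between the 81.1st and the 94.4th percentile of its array. The next, 1416105_at (probe set B), averaged 10.08 and lay between the 74.6th and the 90.6th percentile. Both were above the 40th percentile of every array, the filter used here, on 18 of 18 arrays in each tissue. The last, 1432608_at (probe set C), averaged 1.79, was above that percentile on 0 of 18 arrays in each tissue, and was not tested. On probe set C the C57BL6/J arrays ranged from 1.66 to 1.91 and overlapped the other strains in every tissue. The sources used here do not place the probe sets on the exons of Nnt, so whether A or B lies inside or outside the deleted part is not known, and a probe outside it cannot check the deletion itself.

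In hippocampus, probe set A read 9.71 on the tested C57BL6/J array and 9.99 and 9.99 on the untested arrays. The 15 arrays of the other strains ranged from 10.41 to 11.26 with a median of 11.07, and no array overlapped C57BL6/J. Over all probe sets tested in hippocampus, 0.553% had all 3 C57BL6/J arrays below all 15 others. C57BLKS/J was the next lowest strain at 10.41, 10.41 and 10.44. C3H HeJ followed at 10.75, 10.77 and 10.58. The remaining strains were close together, with BalbC/J at 11.22, 11.26 and 11.13, C57BL10/J at 11.17, 11.08 and 11.10, and C57L/J at 11.03, 11.12 and 11.07 (tested array first in each case). These 9 arrays stood above every C3H HeJ and C57BLKS/J array, a separation not counted over all probe sets.

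Probe set B gave the same order in hippocampus with less distance at the bottom. The C57BL6/J arrays read 8.93, 9.08 and 9.28, and the C57BLKS/J arrays 9.44, 9.14 and 9.43. The groups overlapped there, since the first untested C57BLKS/J array lay below the second untested C57BL6/J array. C3H HeJ read 9.79, 9.69 and 9.65. The other strains lay higher, from 10.16 to 10.35 over their 9 arrays.

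**Figure D1:**
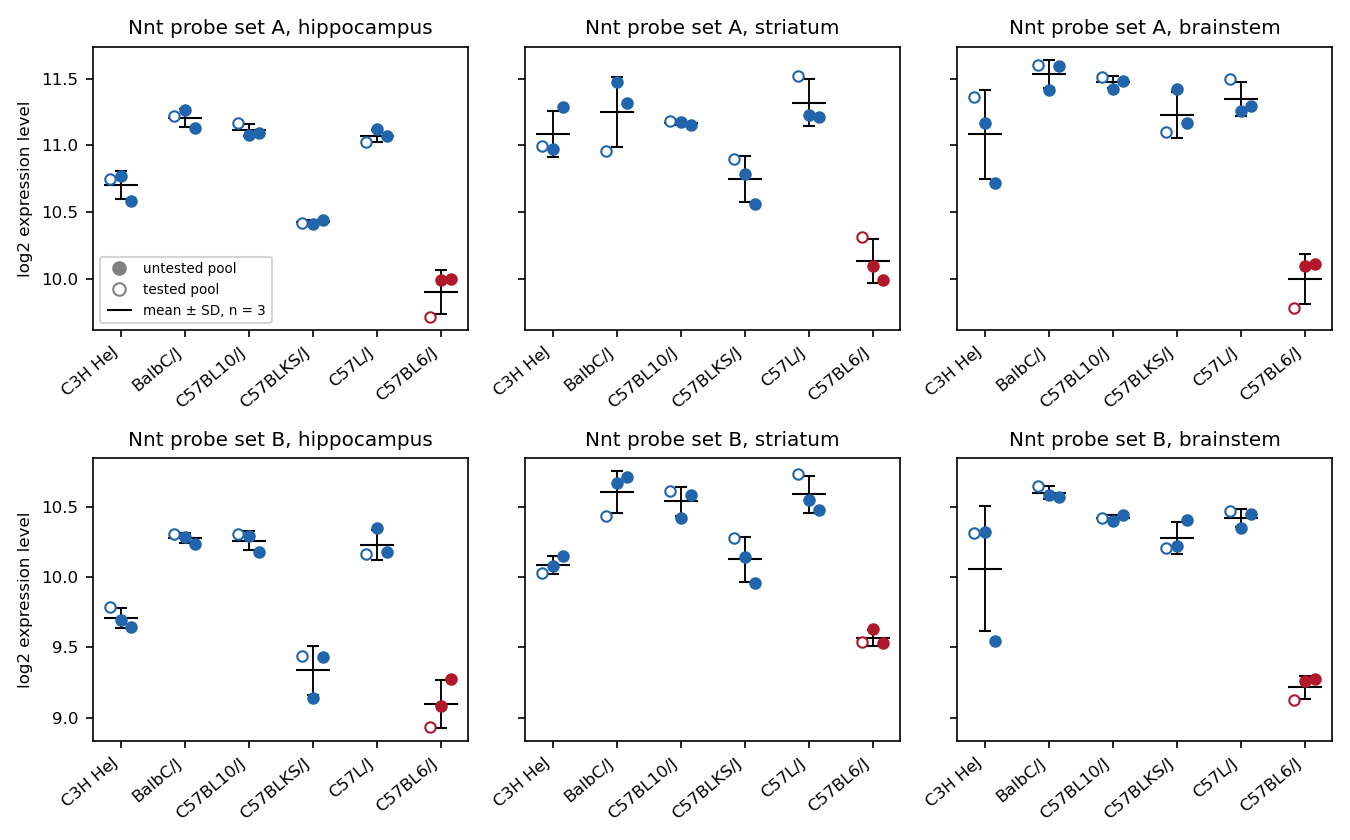
Log2 expression level of Nnt on each array (vertical axis) by strain (horizontal axis) for probe sets A (top) and B (bottom) in the 3 tissues; open circles are tested pools, filled circles untested pools, and bars the mean ± SD of 3 arrays. C57BL6/J (red) is the lowest strain in every panel, at 9.71 to 10.32 on probe set A, and only in hippocampus on probe set B does it overlap another strain, C57BLKS/J.

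In striatum, probe set A read 10.32 on the tested C57BL6/J array and 10.10 and 9.99 on the untested ones, against 10.56 to 11.52 on the 15 other arrays (median 11.18). The groups did not overlap, as for 0.655% of probe sets tested in striatum, and the lowest of the other arrays was again from C57BLKS/J, which read 10.89, 10.79 and 10.56. C3H HeJ, at 10.998, 10.97 and 11.29, shared the range of BalbC/J on this probe set. On probe set B the C57BL6/J arrays read 9.54, 9.63 and 9.53 against 9.96 to 10.74. Here C3H HeJ, at 10.03, 10.08 and 10.15, and C57BLKS/J, at 10.28, 10.14 and 9.96, lay below all 9 arrays of the 3 remaining strains. The lowest of those read 10.42, and the share of probe sets with that separation was not counted.

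In brainstem the C57BL6/J arrays read 9.78, 10.10 and 10.11 on probe set A, and the 15 other arrays 10.71 to 11.60 (median 11.41). On probe set B the readings were 9.12, 9.26 and 9.27 against 9.55 to 10.65. No array overlapped on either probe set, a separation that 2.26% of probe sets tested in brainstem showed. The lowest of the other arrays on both was the second untested C3H HeJ array, at 10.71 and 9.55, while the remaining C3H HeJ arrays read 11.36 and 11.17 on A and 10.31 and 10.32 on B. C57BLKS/J, so low in hippocampus, read 11.10, 11.43 and 11.17 on A and 10.21, 10.22 and 10.41 on B.

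Nnt was lower in C57BL6/J than in the mean of the 5 other strains in every tissue on both probe sets. On probe set A the hippocampal log2 difference was -1.004 ± 0.06 (SE, 3 against 15 arrays), the striatal one -0.98 ± 0.11 and the brainstem one -1.34 ± 0.11. The signal was therefore 2.01, 1.98 and 2.53 times lower, with limma adjusted p of 1.11e-08, 7.21e-05 and 4.59e-06. On probe set B the differences were -0.86 ± 0.07, -0.82 ± 0.08 and -1.14 ± 0.12, or 1.82, 1.77 and 2.20 times lower (limma adjusted p = 1.43e-06, 1.43e-05 and 3.46e-05). All 6 values passed the threshold of an adjusted p under 0.05, at which a probe set is called lower here. Of all hippocampal probe sets tested in this comparison 3.74% were called lower, of striatal ones 2.12% and of brainstem ones 5%. By size, a difference further below 0 from the mean of the 5 others than that of probe set A was found for 95 of 27498 hippocampal, 146 of 27635 striatal and 58 of 27507 brainstem probe sets. Without the second untested C3H HeJ array the brainstem differences were -1.38 on A (limma adjusted p = 1.73e-07) and -1.19 on B (1.53e-09). Without the tested C57L/J array the striatal differences were -0.96 and -0.81 (limma adjusted p = 1.004e-04 and 1.99e-05).

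Against C57BL10/J, the close relative, Nnt was also lower in every tissue. The hippocampal difference on probe set A was -1.22 ± 0.07, the striatal one -1.04 ± 0.14 and the brainstem one -1.48 ± 0.14 (limma adjusted p = 6.83e-08, 0.00135 and 5.16e-05). On probe set B it was -1.16 ± 0.10, -0.97 ± 0.10 and -1.20 ± 0.15 (2.39e-06, 8.58e-05 and 6.51e-04). All 3 arrays of C57BL6/J lay below all 3 of C57BL10/J in each case, a separation whose share over all probe sets was not counted. Of all probe sets tested, 0.811% were called lower in C57BL6/J hippocampus, 0.275% in the striatum and 2.26% in the brainstem. In this comparison 52 hippocampal, 107 striatal and 36 brainstem probe sets had a difference further below 0 than probe set A. With only the untested arrays, 2 per strain, the brainstem difference on B was -1.15 and not called (limma adjusted p = 0.0705).

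Against the other strains 1 at a time, the Nnt difference ranged widely. The largest was to BalbC/J in brainstem, -1.54 ± 0.14 on A and -1.38 ± 0.15 on B (limma adjusted p = 6.22e-06 and 2.75e-05), or 2.91 and 2.61 times lower. The smallest was to C57BLKS/J in hippocampus, -0.52 ± 0.07 on A (limma adjusted p = 3.10e-04) and -0.24 ± 0.10 on B, which was not called (limma adjusted p = 0.167). The 95% interval of that last difference ran from -0.44 to -0.04, and without the first untested C57BLKS/J array it was -0.34 and just inside the threshold (limma adjusted p = 0.049996). In striatum the difference to C57BLKS/J was -0.61 ± 0.14 on A, close to the threshold (limma adjusted p = 0.0348), and -0.56 ± 0.10 on B (0.00657). In brainstem it was -1.23 ± 0.14 on A and -1.06 ± 0.15 on B (limma adjusted p = 1.44e-04 and 8.96e-04). With the untested arrays alone B was not called against C57BLKS/J in striatum (-0.47, limma adjusted p = 0.0549) or in brainstem (-1.05, 0.0720), nor against C3H HeJ in brainstem (-0.67, 0.0864). The call on A in striatum was lost without the tested or the first untested C57BLKS/J array, without either untested C57BL6/J array, and without the tested C57BL10/J array. Its value then ran from -0.61 to -0.54 and its limma adjusted p from 0.0520 to 0.176. Over all probe sets 2.46%, 0.937% and 1.31% were called lower in C57BL6/J than in C57BLKS/J, for the 3 tissues in the same order as before. Against BalbC/J the shares were 6.02%, 3.67% and 6.64%. They were 8.64%, 11% and 11.2% against C3H HeJ, and 1.81%, 1.82% and 1.86% against C57L/J.

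**Figure D2:**
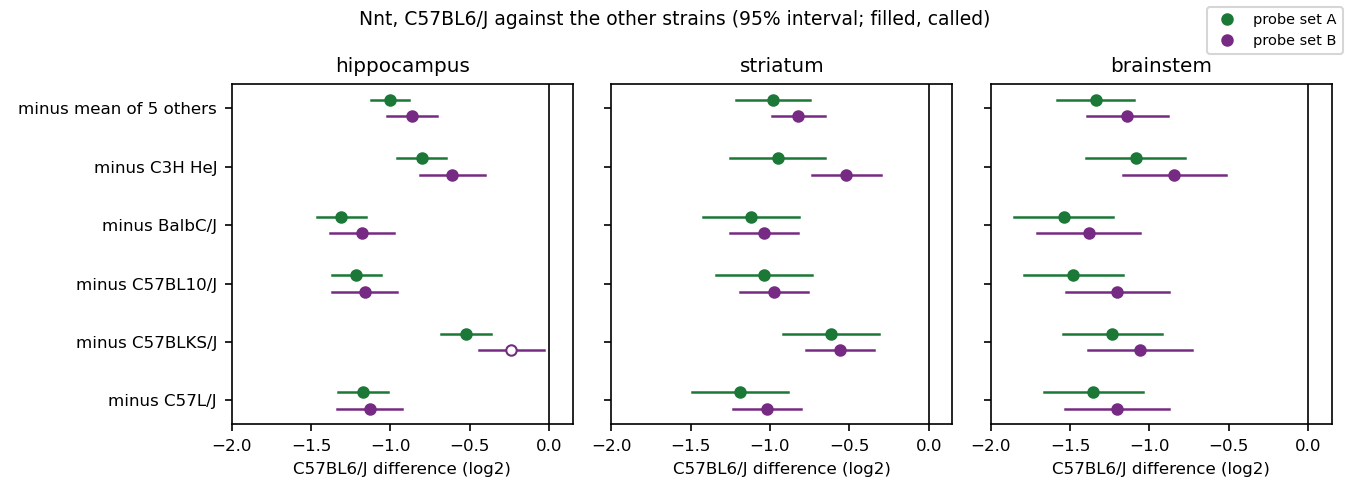
Difference in log2 Nnt level between C57BL6/J and the mean of the 5 other strains or each of them (horizontal axis) in 3 tissues for probe sets A (green) and B (purple); points are limma estimates, lines their 95% intervals, filled points called. Every estimate lies below 0, from -1.54 to -0.24, and the 1 open point is probe set B against C57BLKS/J in hippocampus.

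Counted over the 15 comparisons of C57BL6/J with 1 other strain in 1 tissue, probe set A was called lower in 15 and probe set B in 14. These comparisons share the C57BL6/J arrays of their tissue. Of 25210 probe sets tested in all 3 tissues, 196 (0.777%) were called lower than the mean of the others in each tissue, and 13 (0.0516%) were called lower in all 15 comparisons. They belonged to Gabra2, a GABA-A receptor subunit, Wdfy1, Ndn, Mkrn1, Nnt and 1 unnamed probe set. In 22 probe sets (0.0873%), probe set A among them, all 3 C57BL6/J arrays lay below all 15 others in each tissue.

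The 5 other strains did not share a single level of Nnt. In hippocampus the strain levels spanned 0.79 on probe set A and 0.94 on probe set B, and an F test for any difference among the 5 strains was passed on both (limma adjusted p = 2.47e-06 and 3.08e-06; 30.8% of all probe sets were called there). In striatum the span was 0.57 on A (limma adjusted p = 0.0437) and 0.52 on B (0.00144), with 24.3% of probe sets called. The call on A was lost in 14 of the 18 fits that left out a single array, with spans of 0.48 to 0.70 and limma adjusted p of up to 0.172 over the 18. In brainstem the span was 0.45 on A and 0.54 on B, and neither was called (limma adjusted p = 0.143 and 0.120; 19.7% called). Without the second untested C3H HeJ array, B was called with a span of 0.32 (limma adjusted p = 0.00804) and A was not, at 0.31. Without the first untested C3H HeJ array B was called with a span of 0.68 (limma adjusted p = 0.0378).

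Most of that spread lay between C3H HeJ and C57BLKS/J on 1 side and C57L/J, C57BL10/J and BalbC/J on the other, a split seen in the values and then counted. Of the 6 pairs across it, 6 were called in hippocampus on A and 6 on B, with differences from -0.79 to -0.37 and from -0.94 to -0.52. Summed over these pairs, 12.3% of all hippocampal probe set comparisons were called. In striatum 2 were called on A and 6 on B (10.5% over all). In brainstem 0 were called on A (differences from -0.45 to -0.12) and 1 on B (7.97% over all), C3H HeJ against BalbC/J at -0.54 (limma adjusted p = 0.0434). Without the second untested C3H HeJ array 0 were called on A and 2 on B (11.5% over all). Those were C3H HeJ against BalbC/J at -0.28 and C57BLKS/J against BalbC/J at -0.32 (limma adjusted p = 0.0158 and 0.00192). Among C57L/J, C57BL10/J and BalbC/J, 0 of 3 pairs were called in any tissue on either probe set, with strain differences of at most 0.19 (smallest limma adjusted p = 0.226, or 0.05003 for B in brainstem without that C3H HeJ array), beside 13.7%, 7.05% and 7.35% of all such comparisons in the 3 tissues. In the order of levels these 3 neighbours were thus not separated at the threshold. C57BLKS/J lay below C3H HeJ in hippocampus by 0.28 on A and 0.37 on B (limma adjusted p = 0.0194 and 0.0173), whereas in striatum and brainstem that pair was not called. Over all probe sets 11.7%, 15.6% and 12.9% were called for it.

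The position of C57BLKS/J moved with tissue. Against the mean of C57L/J, C57BL10/J, BalbC/J and C3H HeJ it differed by -0.78 ± 0.08 in hippocampus on probe set B (limma adjusted p = 3.63e-06; 4.61% of probe sets called lower), by -0.33 ± 0.08 in striatum (0.0227; 3.33%) and by -0.10 ± 0.12 in brainstem (0.727; 3.42%). Without the second untested C3H HeJ array the brainstem value was -0.16 and was called (limma adjusted p = 0.0385; 6.64% of probe sets called lower). With all arrays the hippocampal value differed from the brainstem value by -0.68 ± 0.14 (limma adjusted p = 0.00513 over 25210 probe sets, of which 0.714% were called). On probe set A the values in the same order were -0.60, -0.46 and -0.13, and the difference between hippocampus and brainstem was -0.47 ± 0.14 and did not pass (adjusted p = 0.142). Without the first untested C57BLKS/J hippocampus array the value on B was -0.58 and did not pass (limma adjusted p = 0.0672). On B the hippocampal and striatal values differed by -0.45 ± 0.14, which did not pass (limma adjusted p = 0.104; 0.992% of probe sets called) unless the second untested C3H HeJ brainstem array was left out of the fit (0.00875). These contrasts were chosen after the values were seen.

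Whether the C57BL6/J difference itself depended on tissue was tested on all 54 arrays. It was further below 0 in brainstem than in hippocampus by 0.34 ± 0.14 on A and 0.27 ± 0.13 on B, and than in striatum by 0.36 ± 0.14 and 0.32 ± 0.13. The values in hippocampus and striatum differed by -0.02 ± 0.14 and -0.04 ± 0.13 (limma adjusted p = 0.9998 and 0.992; 0.234% called over all probe sets). None of the comparisons with brainstem passed (limma adjusted p = 0.322, 0.411, 0.323 and 0.374), nor did the F test over the 3 tissues (0.321 on A and 0.402 on B; unadjusted p = 0.0256 and 0.0468). Over all probe sets 0.817% passed that F test, and 0.313% and 0.643% the comparisons of brainstem with hippocampus and with striatum.

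In the strains other than C57BL6/J, Nnt was lower in hippocampus than in the other tissues, and this held under quantile normalization and median centring. The hippocampal level was below the striatal one by -0.19 ± 0.07 on A and -0.42 ± 0.06 on B (limma adjusted p = 0.0120 and 2.95e-07), and below the brainstem one by -0.41 ± 0.07 and -0.38 ± 0.06 (1.43e-06 and 1.85e-06). Tissue differences of this kind were the rule, with 81.7% and 79.5% of probe sets called in the same comparisons. Striatum and brainstem could not be ordered: on A the striatum was lower by -0.22 ± 0.07 (limma adjusted p = 0.00369; 84.6% of probe sets called), but it read 0.0030 and 0.045 higher after quantile normalization or median centring of the 54 arrays. On B the value was 0.04 ± 0.06 (limma adjusted p = 0.564), and 0.25 and 0.30 after the same steps, which were called (8.66e-04 and 5.91e-05). Within C57BL6/J the hippocampus minus striatum difference was -0.21 ± 0.13 on A (adjusted p = 0.164) and -0.46 ± 0.13 on B (limma adjusted p = 0.00157; 67.4% called). The hippocampus minus brainstem difference in C57BL6/J was -0.07 ± 0.13 on A and -0.11 ± 0.13 on B, neither called (65.7% called over all). Striatum minus brainstem in C57BL6/J was 0.14 ± 0.13 on A, not called, and 0.36 ± 0.13 on B (limma adjusted p = 0.0112; 74.7% called). That last call was lost without the first untested C57BL6/J striatum array (0.32, limma adjusted p = 0.0505) and without the tested C57BL6/J brainstem array (0.29, 0.0541). On A both differences that involve striatum passed after either rescaling: hippocampus minus striatum was -0.52 and -0.58 (limma adjusted p = 0.00119 and 8.69e-05), and striatum minus brainstem 0.32 and 0.38 (0.0345 and 0.00539), for quantile normalization and median centring.

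Behavioural testing, begun on postnatal day 50, was not accompanied by a called change in Nnt on day 60. On probe set A, tested minus untested was -0.03 ± 0.04 for hippocampus, 0.04 ± 0.09 for striatum and 0.05 ± 0.09 for brainstem (6 against 12 arrays), and 0.01 ± 0.06, 0.03 ± 0.06 and 0.05 ± 0.09 on probe set B. The smallest limma adjusted p among the 6 was 0.982, and the widest 95% interval ran from -0.15 to 0.25. In this comparison limma called 0 of all probe sets in each tissue (0%), with 1272, 1141 and 679 at an unadjusted p under 0.05 in hippocampus, striatum and brainstem. Within C57BL6/J the tested pool was the lowest of the 3 on A in hippocampus and brainstem and the highest in striatum.

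Probe sets A and B gave nearly the same picture of the arrays. With tissue means removed they correlated at 0.95 over the 54 arrays and at 0.89 over the 45 arrays without C57BL6/J, a description of arrays that share strain and pool. The distance between them was a little smaller in C57BL6/J. The A minus B difference within an array was 0.80 ± 0.10 (SD, n = 3) in C57BL6/J hippocampus against 0.94 ± 0.12 (n = 15) elsewhere. In striatum it was 0.57 ± 0.19 against 0.73 ± 0.17, and in brainstem 0.78 ± 0.10 against 0.98 ± 0.13. An exact two-sided permutation test over the 816 regroupings of the 18 arrays gave p = 0.0919, 0.156 and 0.0221 in that order, where the smallest possible value is 0.00123. With Benjamini-Hochberg adjustment over the 3 tissues these became 0.138, 0.156 and 0.0662. The regroupings treat all 18 arrays as interchangeable, although 3 arrays share each strain. These p-values therefore do not measure how unusual C57BL6/J is among strains.

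The genes whose strain pattern was most like that of Nnt were sought among probe sets that differed by over 1 log2 unit between C57BL6/J and the mean of the others in each tissue. There were 83 such probe sets of 66 named genes, 32 lower and 51 higher in C57BL6/J. Likeness was Pearson's correlation with probe set A over the 18 strain means, each tissue centred, and it is given as a description because all means share their libraries. Over all 25210 probe sets, with no limit on size, the highest value belonged to probe set B, at 0.97, followed by Anapc5 at 0.94, Atp5d at 0.92 and Csnk2a2 at 0.91. The C57BL6/J differences of these 3 genes were small, from -0.27 to -0.13. Among the 83 probe sets with large differences, Wdfy1 reached 0.90, Gabra2 0.88 and Alad, the second enzyme of haem synthesis, 0.76. Il6st, the shared signalling subunit of the interleukin-6 receptor family, reached 0.70 and lies on chromosome 13 like Nnt. Slc15a2, a peptide transporter, reached 0.63, and Rora, a nuclear receptor, 0.59. Each value belongs to 1 probe set. For Alad, Il6st and Rora only 1 probe set passed the limit on size, of 2, 4 and 8 compared. The order of these 6 genes depended on the measure. Spearman's rank correlations on the same probe sets were 0.45 for Wdfy1, 0.39 for Gabra2, 0.63 for Alad, 0.62 for Il6st, 0.66 for Slc15a2 and 0.63 for Rora.

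The genes most like Nnt did not all share its order of the remaining strains. Wdfy1 read 8.10 in C57BL6/J hippocampus while the other strain means lay between 10.36 and 10.59, without the intermediate C57BLKS/J level seen for Nnt. Gabra2 likewise read 10.93 against 12.58 to 12.82. Alad differed, since its C57BL6/J mean of 7.82 in hippocampus lay inside the range of the other strain means (7.36 to 10.36). At the opposite end were Mid1, at -0.86, Pttg1, a regulator of chromosome separation, at -0.82, and Hpgd, the enzyme that inactivates prostaglandins, at -0.73. Their Spearman values were -0.53, -0.72 and -0.29. Mid1 read 7.64 in C57BL6/J hippocampus and at most 2.48 in any other strain mean.

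The nearest genes on chromosome 13 were examined to see whether a low signal in C57BL6/J extended beyond Nnt. Neighbours were the 10 genes on each side nearest to Nnt that have a probe set, in the order of the RefSeq annotation of GRCm38.p6, and each was represented by its brightest probe set. On these probe sets no neighbour was called lower in C57BL6/J against the mean of the 5 others: 4 of 14 tested were called higher in hippocampus, then 2 of 15 in striatum and 2 of 13 in brainstem, where 6.73%, 2.06% and 3.39% of all probe sets were called higher. Leaving out single arrays changed these counts: 2 were called in 7 of 18 hippocampal fits, 4 in striatum without the tested C57BL6/J array, and 1 in 13 of 18 brainstem fits. Against C57BL10/J, limma called 2 higher in hippocampus (Ccl28 and Nim1k), 0 in striatum and 1 in brainstem (Nim1k), and none lower, beside 1.71%, 0.239% and 1.61% of all probe sets. Ccl28, a chemokine, was dim, and its hippocampal difference to the mean of the others was 0.61 ± 0.18 (limma adjusted p = 0.0394). Nim1k, a protein kinase, was higher by 0.23 ± 0.07 in hippocampus (limma adjusted p = 0.0446).

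The largest neighbour differences separated other strains. Tmem267, which encodes a membrane protein, read 10.70, 10.52 and 9.92 in C57BL6/J (hippocampus, striatum and brainstem) and was higher than the mean of the others by 2.51 ± 0.24, 3.15 ± 0.31 and 2.87 ± 0.29 (limma adjusted p = 5.59e-06, 2.42e-05 and 2.77e-05). Most of this came from C3H HeJ, at 6.40, 4.81 and 4.86, and C57BLKS/J, at 5.09, 4.16 and 4.17, while C57BL10/J read 9.68, 9.17 and 8.50. The C57BL6/J minus C57BL10/J differences of 1.02, 1.35 and 1.42 were not called (limma adjusted p = 0.0989, 0.275 and 0.0513).

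The gene labelled 4833420G17Rik showed the same division of strains. On its brightest probe set it was higher in C57BL6/J by 0.85 ± 0.07, 0.56 ± 0.07 and 0.60 ± 0.16 (limma adjusted p = 1.39e-06, 1.19e-04 and 0.0397). On the third of its probe sets C3H HeJ and C57BLKS/J read 4.29 and 4.77 in hippocampus against 8.21 to 8.60 in the other 4 strains. The fourth divided the strains the other way, with 7.81 and 7.17 in striatum against 5.03 to 5.48. It was called lower in C57BL6/J striatum (-1.10 ± 0.20, limma adjusted p = 0.00600) and not called in hippocampus or brainstem. The fifth was dim and not called in any tissue. Paip1, the gene next to Nnt on 1 side, which encodes a partner of poly(A)-binding protein, divided the strains in the direction opposite to Tmem267. Its second probe set, called lower in C57BL6/J against the mean of the others (-2.67 ± 0.16 in hippocampus, limma adjusted p = 2.89e-08), read 10.54 in C3H HeJ and 10.50 in C57BLKS/J hippocampus and 4.99 to 5.95 elsewhere, while on its brightest probe set the strain means lay from 10.54 to 10.83. The C57BL6/J minus C57BL10/J difference on the second probe set was -0.76 and not called (limma adjusted p = 0.0710). Probe sets of 1 gene thus disagreed at both 4833420G17Rik and Paip1, and what each probe set matches was not tested. Paip1 and the fourth probe set of 4833420G17Rik were chosen for description after their values were seen.

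**Figure D3:**
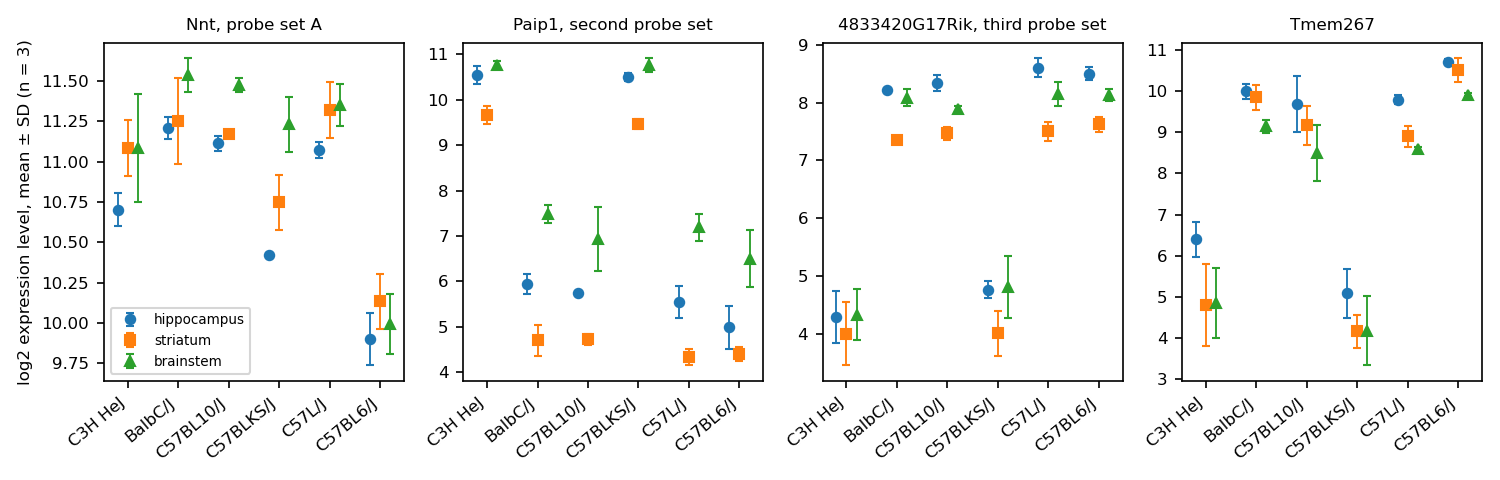
Log2 expression level by strain (horizontal axis), mean ± SD of 3 arrays, of Nnt probe set A and of probe sets of 3 neighbouring genes in hippocampus, striatum and brainstem; each panel has its own vertical scale. C3H HeJ and C57BLKS/J stand together apart from the other strains at Paip1 (10.54 and 10.50 in hippocampus), 4833420G17Rik and Tmem267, whereas C57BL6/J alone is lowest at Nnt.

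C3H HeJ and C57BLKS/J, the strains that stand apart at these neighbours, are also those with the intermediate levels of Nnt in hippocampus. C57BL6/J lay with C57L/J, C57BL10/J and BalbC/J at Paip1 and 4833420G17Rik, yet far below them at Nnt. Whether these patterns have a shared origin was not tested.

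Genes that make or use NADPH and NAD, and the thiol systems it feeds, were taken as 6 lists of 102 genes, 94 with a probe set. Against the mean of the 5 others limma called 12 of 86 tested in hippocampus (8 higher and 4 lower, 14%), 4 of 87 in striatum (3 and 1, 4.6%) and 12 of 86 in brainstem (4 and 8, 14%). These counts rest in part on single arrays. They were 7 in hippocampus without the second untested C57BL6/J array, 2 in striatum without the second untested C57BL6/J array, and 7 in brainstem without the first. Without the second untested C3H HeJ array 23 of 86 were called in brainstem (6 higher and 17 lower, 26.7%), which include those 12, beside 16.9% of all probe sets. Over all probe sets with all arrays 10.5%, 4.18% and 8.39% were called, and over all genes by their brightest probe set 9.83%, 3.8% and 8.56%. No test of the lists as sets was made. Their median difference was 0.01, -0.03 and -0.06, beside 0.02, -0.02 and -0.03 over all genes. Against C57BL10/J 2 genes were called in hippocampus (Mthfd2 and Ggct, both higher), 0 in striatum and 2 in brainstem (Slc25a27 and Txnrd1, both lower). That is 2.33%, 0% and 2.33% of those tested, beside 2.52%, 0.514% and 3.88% of all probe sets.

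Of the 9 genes listed for the mitochondrial NADPH supply, not all of which make NADPH themselves, 3 were called in hippocampus (2 higher), 0 in striatum and 3 in brainstem (1 higher). That is 33.3%, 0% and 33.3%, beside 10.5%, 4.18% and 8.39% of all probe sets. Idh2, Me2 and Glud1, the matrix isocitrate, malic enzyme and glutamate dehydrogenase activities, were not called in any tissue, and Idh2 read -0.04 ± 0.12, -0.19 ± 0.09 and -0.28 ± 0.09. Without the second untested C3H HeJ array Idh2 was called lower in brainstem (-0.30, limma adjusted p = 0.0131). Me3, a second mitochondrial malic enzyme, was lower by -0.44 ± 0.10 in hippocampus and -0.66 ± 0.08 in brainstem (limma adjusted p = 0.0103 and 1.57e-04), with its C57BL6/J arrays (7.98 to 8.04 and 6.90 to 7.24) overlapping the other strains. Nadk2, the mitochondrial NAD kinase, was higher by 0.30 ± 0.05 in hippocampus and 0.35 ± 0.06 in brainstem (limma adjusted p = 9.59e-04 and 0.00197). In hippocampus its C57BL6/J arrays (11.04 to 11.14) lay above all others (at most 11.003), a separation not counted over all probe sets. Of the folate enzymes, Mthfd2 was higher by 0.76 ± 0.15 in hippocampus (limma adjusted p = 0.00355), where its C57BL6/J minus C57BL10/J difference was 0.88 ± 0.19 (0.0238). Mthfd1l was lower by -0.29 ± 0.08 in brainstem (0.0420). Among the 11 cytosolic NADPH genes tested the 1 call was Taldo1, transaldolase, higher by 0.24 ± 0.07 in hippocampus (limma adjusted p = 0.0307). That is 9.09% in hippocampus, beside the 10.5% over all probe sets. Pgd, phosphogluconate dehydrogenase, was called lower in brainstem when the C3H HeJ array was left out (-0.14, limma adjusted p = 0.0427).

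The glutathione and thioredoxin list held 5 calls of 32 in hippocampus (2 higher), 2 of 33 in striatum (1 higher) and 6 of 33 in brainstem (1 higher). That is 15.6%, 6.06% and 18.2%, beside 10.5%, 4.18% and 8.39% of all probe sets. Glo1, which detoxifies methylglyoxal with glutathione, was lower in each tissue, by -0.50 ± 0.05, -0.64 ± 0.06 and -0.43 ± 0.05 (limma adjusted p = 3.80e-06, 8.87e-06 and 2.31e-04). Its C57BL6/J arrays in hippocampus, 12.11 to 12.19, lay inside the range of the other strains, 11.96 to 13.50. Gsr, glutathione reductase, which spends NADPH to regenerate glutathione, was lower by -0.32 ± 0.07 in hippocampus and -0.29 ± 0.07 in brainstem (limma adjusted p = 0.00754 and 0.0176) and read -0.02 ± 0.08 in striatum. Txnrd1, the cytosolic thioredoxin reductase, was lower by -0.25 ± 0.04 in brainstem (limma adjusted p = 9.09e-04). There all 3 C57BL6/J arrays (10.64 to 10.71) lay below all 15 others (10.81 to 11.16), as for 2.26% of probe sets tested in brainstem. The other 2 Txnrd1 probe sets read -0.03 and 0.01 there. Gsta4, which conjugates lipid aldehydes, was lower by -0.43 ± 0.05 in hippocampus (limma adjusted p = 5.98e-05). Without the second untested C3H HeJ array Gsta4 was called lower in brainstem too (-0.12, limma adjusted p = 0.0101). Gpx3 (-0.65, limma adjusted p = 2.04e-06), Glrx, Srxn1 and Gstp1 were then called lower there as well. Prdx4 was higher by 0.53 ± 0.10 in brainstem on its brightest probe set (0.00538), and its other 2 probe sets tested there read -0.03 and 0.02. The matrix members Prdx3, Txn2 and Txnrd2 were not called in any tissue. Gsr, Txn2, Txnrd2, Prdx3, Idh2, Me2 and Glud1 were chosen for naming after their values were seen. So were the genes named for a call without the C3H HeJ array.

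**Figure D4:**
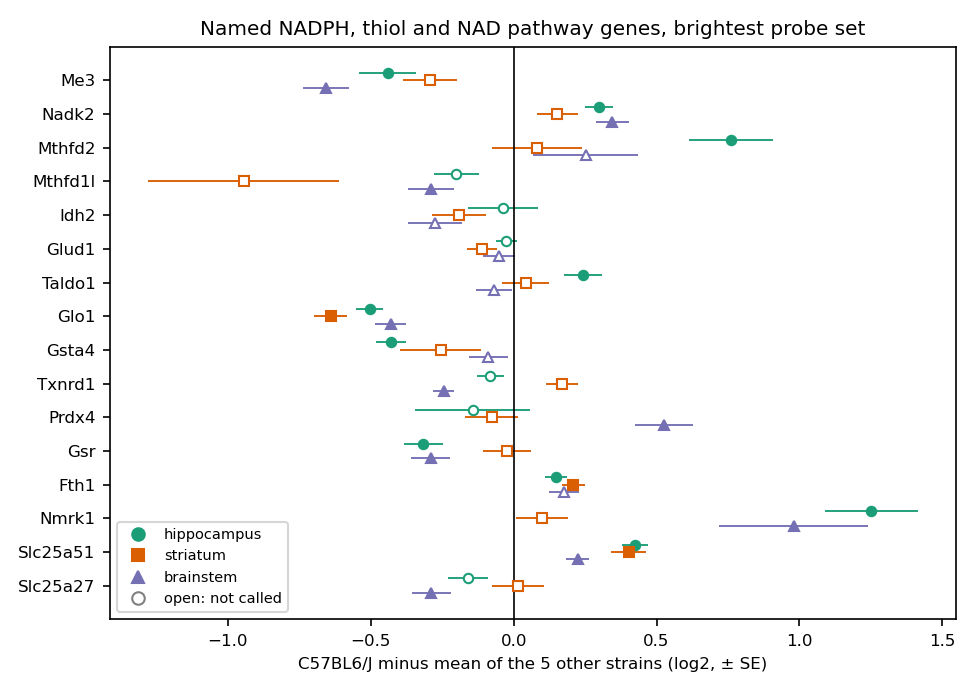
Difference in log2 level between C57BL6/J and the mean of the 5 other strains, ± SE (horizontal axis), for named genes of NADPH, thiol and NAD metabolism in 3 tissues; filled symbols were called. Values run both ways, from -0.66 for Me3 in brainstem to 1.25 for Nmrk1 in hippocampus among those called. On the brightest probe set of each gene, which is plotted, Glo1 is lower and Slc25a51 higher in all 3 tissues. The other Slc25a51 probe sets, not plotted, read lower.

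Of the remaining lists, that for superoxide and peroxide removal and Nrf2 targets held 1 called gene with all arrays, Fth1, the ferritin heavy chain. Fth1 was higher by 0.15 ± 0.04 in hippocampus and 0.21 ± 0.04 in striatum (limma adjusted p = 0.0248 and 0.00835). That is 7.69% of 13 tested in each, beside 10.5% and 4.18% of all probe sets. Without the second untested C3H HeJ array Fth1 was called higher in brainstem (0.16, limma adjusted p = 0.00467) and Sod1 lower (-0.13, limma adjusted p = 0.0352). In the NAD list, Nmrk1, which phosphorylates nicotinamide riboside, was higher by 1.25 ± 0.16 in hippocampus and 0.98 ± 0.26 in brainstem (limma adjusted p = 1.22e-04 and 0.0338). Without that C3H HeJ array Sirt3 was called lower and Nudt12 higher in brainstem (-0.24 and 0.24, limma adjusted p = 0.0193 and 0.0220). Slc25a51, the mitochondrial NAD carrier, was higher in all tissues on its brightest probe set, by 0.42 ± 0.05, 0.40 ± 0.06 and 0.22 ± 0.04, while its other 2 probe sets read -0.66 to -0.15. Of the uncoupling genes, Slc25a27, a brain uncoupling protein, was lower in brainstem by -0.29 ± 0.07 (limma adjusted p = 0.0169) and against C57BL10/J by -0.39 ± 0.09 (0.0262).

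Some cell type and tissue markers differed in C57BL6/J hippocampus. Of 9 oligodendrocyte markers tested, 4 were called higher there (Mal, Mog, Mag and Mobp; 44.4%, beside 6.73% of all probe sets called higher), and the list's summed log2 signal was 16.97 to 17.25 in C57BL6/J against 16.67 to 17.12 in the other strains. Summed brainstem markers were 7.86 to 7.91 in C57BL6/J hippocampus against 8.09 to 8.43, a sum over 12 genes of which 5 passed the filter. Of those 5, 2 were called lower (Hoxa5 and Dbh, 40%, beside 3.74% called lower over all). The median difference of the 5 was 0.02, so the other members tested did not read lower. Summed neuronal markers were 17.42 to 17.58 against 17.47 to 17.58, and astrocyte markers 16.61 to 16.78 against 16.51 to 16.80. In striatum and brainstem the summed oligodendrocyte, neuronal and astrocyte signals of C57BL6/J overlapped those of the other strains. Single members still differed: 3 of 10 astrocyte markers were called in striatum (30%, beside 4.18% over all), with Slc1a3 higher and Gfap and Gja1 lower. In brainstem the summed brainstem markers of C57BL6/J, 14.05 to 14.13, lay at the top of the range of the other strains, 12.41 to 14.13 with a median of 13.67. The cerebellar markers there had a median difference of -1.39 with 0 of 8 called by limma, and their summed level was 13.10 to 13.32 against 13.04 to 17.36, or to 14.38 when that C3H HeJ array was left out. Gabra6, Neurod1 and Cbln1 were then called lower. Of the hippocampal markers, 4 of 11 were called higher in C57BL6/J hippocampus (C1ql2, Tdo2, Fibcd1 and Trpc6; 36.4%), with summed levels of 14.63 to 14.68 against 14.49 to 14.85. The microglial marker C1qc was called higher in all 3 tissues, by 0.87 ± 0.12, 0.65 ± 0.09 and 0.67 ± 0.13 (limma adjusted p = 2.30e-04, 6.19e-04 and 0.00596). Of 9 microglial markers tested, 2 were called higher in hippocampus, 1 higher and 1 lower in striatum, and 2 higher in brainstem. That is 22.2% in each, beside 10.5%, 4.18% and 8.39% of all probe sets. The list's median differences were -0.02, -0.11 and -0.08. Its summed signal in C57BL6/J overlapped that of the other strains in each tissue. The part of these shifts in the Nnt difference was not tested.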

How the data were processed

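Expression was measured on 54 Affymetrix mouse arrays. The authors deposited 1 table of log2 values. R 2.6.1, affy 1.16.0, RMA, GCRMA 2.10.0 and limma 2.12.0 are named, per the submitters' processing notes, without saying which of RMA and GCRMA made the table or whether tissues were normalized together. Scan batches and probe-level intensities were not analysed here. Groups came from the sample labels, and probe sets were named by the platform annotation: 34945 of 45101 had 1 symbol, 932 several, 9160 none and 64 were controls.

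From these values limma 3.58.1 (R 4.3.3) was fitted tissue by tissue to all non-control probe sets above the 40th percentile of their array on at least 3 arrays, with strain and testing as terms, an intensity trend and Benjamini-Hochberg adjustment over all probe sets tested. Calls are at an adjusted p under 0.05, two-sided. Differences between tissues were fitted on 54 arrays over 25210 probe sets, taken as independent although tissues may share mice. A gene other than Nnt is represented by its brightest probe set. The fits were tested on simulated data. The number of arrays limits the precision.

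All Nnt probe sets were named, with up to 4 genes of each list by smallest adjusted p, every called neighbour, and the 6 most and 3 least like genes; genes named after their values were seen are marked. The members, the lists and the tests were chosen with earlier results of these data known. Alternatives were quantile normalization, median centring, filter, trend, array weights, gene-level fits, untested arrays only, a replicate block and each array left out. No coordinates are printed, the build being one not given in the sources used here; RefSeq GRCm38.p6 served for names and gene order.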

Additional observations from a re-analysis of the deposited data

Results flagged for a closer look

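The deviation of C57BLKS/J from the 4 other strains without C57BL6/J differed between tissues on probe set B of Nnt: the hippocampal value minus the brainstem value was -0.68 ± 0.14 (SE; 95% interval -0.96 to -0.41; limma adjusted p = 0.00513). It is listed because the same contrast gave different values in the 2 tissues by a test of the difference itself. All 3 hippocampal C57BLKS/J arrays lay below the 12 arrays of the 4 other strains on this probe set. The share of all probe sets with that separation was not counted. Without the first untested C57BLKS/J hippocampus array the difference was -0.58 and was not called (limma adjusted p = 0.0672), and on probe set A it was -0.47 and not called (0.142).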

How the results depend on the processing

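The C57BL6/J difference of Nnt from the mean of the 5 others kept its direction and its call in all 159 alternatives over both probe sets and 3 tissues, with values from -1.41 to -0.67 and limma adjusted p of at most 0.0137. Calls against single strains were less firm: on A against C57BLKS/J in striatum, quantile normalization gave -0.60 (limma adjusted p = 0.0656) and no filter -0.61 (0.0540), and untested arrays alone lost 4 of the calls on B, given with their values in the report.

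The span among the 5 others on A in striatum lost its call under quantile normalization (0.58, limma adjusted p = 0.0618), no filter (0.57, 0.0677) and no intensity trend (0.57, 0.0516), and ran from 0.48 to 0.70 with single arrays left out. Array weights called the brainstem spans, 0.35 on A and 0.32 on B (limma adjusted p = 0.0450 and 0.0198); single arrays left out gave 0.32 to 0.68 on B. The testing difference changed sign on B in brainstem with array weights (-0.030) and on A in hippocampus with 1 testing term over 54 arrays (0.019). With single arrays left out it ran from -0.053 to 0.019 (hippocampus), -0.011 to 0.14 (striatum) and -0.029 to 0.12 (brainstem) on A, and from -0.024 to 0.055, -0.014 to 0.084 and -0.020 to 0.084 on B.

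Under quantile normalization and median centring, tissue differences on A were (with calls gained in C57BL6/J) -0.52 and -0.58 (C57BL6/J, hippocampus minus striatum), 0.32 and 0.38 (C57BL6/J, striatum minus brainstem) and 0.0030 and 0.045 (the others, striatum minus brainstem), and on B 0.25 and 0.30 (the others, striatum minus brainstem), now called. With single arrays left out, hippocampus minus striatum of the C57BL6/J difference ran from -0.091 to 0.078 on A and -0.14 to 0.057 on B, the C57BL6/J hippocampus minus brainstem level from -0.19 to 0.013 on A, and striatum minus brainstem on B from -0.034 to 0.081 in the others and from 0.29 to 0.40 in C57BL6/J, with the call lost in 2 fits.

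Counts of probe sets called, 2879, 1154 and 2307 in hippocampus, striatum and brainstem, were 1205, 469 and 1095 with genes in place of probe sets and 16044, 3933 and 6281 with array weights, where 1 hippocampal C57BL6/J array took a weight of 61.9; untested arrays alone gave 741 in brainstem. Leaving out single arrays gave 1436 to 3013, 489 to 1321 and 1072 to 4645. The share of calls that were higher was 64.3% in hippocampus and 40.4% in brainstem, and 52.2% and 54.7% after quantile normalization. Neighbours called were 2 in hippocampus under quantile normalization, and 2 to 4, 2 to 4 and 1 to 2 with single arrays left out. With every probe set of a neighbour counted, 9, 7 and 6 probe sets were called in either direction, where 1 gene can count more than once. Pathway genes called were 7 to 14, 2 to 5 and 7 to 23 with single arrays left out. Counted over every probe set of these genes, 21, 8 and 27 probe sets were called, which is not a count of genes. For these lists, arrays of the other strains were left out as an addition made after seeing the data. The cause of these changes was not tested.

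Same-numbered pools did not deviate together between tissues: median correlations were 0.003, 0.075 and 0.007, with 4, 5 and 3 of 18 pairs over 0.1. Within a tissue the replicate block was a term for replicate number, which does not model pools shared between tissues. With it the counts of calls were 2706, 1045 and 2105, and the span on A in striatum was 0.57 (limma adjusted p = 0.0585). Pools of mice and 3 arrays per group limit what small differences could be detected, and levels across tissues are limited by normalization.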

Other observations

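Among the probe sets whose C57BL6/J arrays lay below all 15 others in each of the 3 tissues, Ndn, which encodes the growth suppressor necdin, was represented by 4, and Gabra2 and Wdfy1 by 3 each. Il6st on chromosome 13, with 1 such probe set, read 8.33 in C57BL6/J hippocampus against strain means of 9.11 to 10.29. These genes were named after their values were seen, and no relation to Nnt was tested.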
